A study of Mus musculus with 12 samples.

Results

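The genes described here are 5 mouse genes named for the CCAAT/enhancer-binding proteins (C/EBPs): *Cebpa*, *Cebpb*, *Cebpd*, *Cebpg* and *Cebpz*. They were chosen by their symbols from 35521 genes with listed transcripts. RNA-Seq was done on 4T1 cells, a mammary carcinoma line from BALB/c mice, in 3 groups with 4 libraries each. In the Tu-Gr1+CD11b+–primed 4T1 group, 4T1 cells had shared medium with Gr1+ cells isolated from 4T1 tumors. In the Spl-Gr1+CD11b+–primed 4T1 group, the Gr1+ cells came from the spleens of tumor-bearing BALB/c mice. Parental 4T1 cells had no Gr1+ cells added. The Gr1+ cells were isolated by magnetic columns at day 21 after tumor cell injection by the labels (the study's methods give another day), and the coculture lasted 48 hours across a membrane with 0.4 μm pores. All groups carried the same unmodified 4T1 background, no gene was targeted, and the sources used here do not give the age of the mice or whether libraries came from separate cocultures. P-values therefore measure the spread between these libraries, which may be technical.

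C/EBP proteins are transcription factors with a basic region that contacts DNA and a leucine zipper through which they pair with each other. C/EBPα is known for driving differentiation of myeloid cells and adipocytes and for restraining proliferation, whereas C/EBPβ and C/EBPδ are induced by IL-6 family cytokines and other inflammatory signals and activate acute-phase genes. C/EBPγ lacks a strong activation domain and pairs with other C/EBPs or with ATF4 at amino acid stress genes. *Cebpz* encodes a member of the nucleolar NOC family involved in ribosome assembly, which carries the family name but has no leucine zipper of this type. In mammary epithelium, C/EBPβ is needed for ductal and lobuloalveolar development, and C/EBPδ is linked to the growth arrest and involution of the gland.

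The depth was 24566183 to 31637755 assigned reads a library. Counts were scaled with TMM factors, which lay between 0.88 and 1.05 and were lower in all 4 parental libraries than in the primed ones, and are given as CPM, the count scaled to a fixed library total. Log2 fold changes and adjusted p-values come from edgeR's quasi-likelihood test over the 12555 genes that passed its expression filter, and a gene is called changed at an adjusted p under 0.05. Values against parental cells are relative to the bulk of genes. The median log2 fold change of all genes tested was 0.02 in both comparisons with parental cells, but 0.21 (Tu-Gr1+CD11b+–primed) and 0.19 (Spl-Gr1+CD11b+–primed) without the factors, and 0.48 and 0.41 on unscaled TPM, which also divides by transcript length. On these scales, the genes higher went from 52.7% of the calls against parental cells to 77.2% and 96.3% in Tu-Gr1+CD11b+–primed cells, and from 53.3% to 83.5% and 98.5% in Spl-Gr1+CD11b+–primed cells. In Tu-Gr1+CD11b+–primed against Spl-Gr1+CD11b+–primed cells, the median was -0.01 and reached 0.05 on TPM, where the higher share of the calls went from 61.1% to 88.8%. The tumor cells were checked against their own markers, and *Krt8*, a simple epithelial keratin, was measured at 871 ± 72.7 CPM (SD, n = 4), 1071 ± 25.98 CPM and 1491 ± 298 CPM in Tu-Gr1+CD11b+–primed, Spl-Gr1+CD11b+–primed and parental cells. Many markers of the Gr1+ cells were at or near 0, but some were close to the level of *Cebpd*. In Tu-Gr1+CD11b+–primed cells, the means of the granulocyte markers *Ltf* and *S100a8* were 4.16 and 2.83 CPM, beside 4.36 CPM for *Cebpd*. Of 16 granulocyte markers, 7 had a count of 0 in every library, among them the neutrophil genes *Ngp* and *Retnlg*, and 11 never exceeded 3 counts. Their summed level was 6.42 to 11.7 CPM in Tu-Gr1+CD11b+–primed, 5.05 to 7.08 CPM in Spl-Gr1+CD11b+–primed and 5.755 to 6.81 CPM in parental cells. Of the 3 that passed the expression filter, 2 rose in Tu-Gr1+CD11b+–primed cells against each other group (1 of them against parental cells with limma-voom), and none was called in Spl-Gr1+CD11b+–primed against parental cells (edgeR). Of 12 monocyte and macrophage markers, 4 were at 0 in every library (*Adgre1*, *Ccr2*, *C1qa* and *C1qb*), and the sum was 9.20 to 10.8 CPM, 6.465 to 7.30 CPM and 6.04 to 6.425 CPM in the same order. Of the 3 tested, 1 rose between the primed groups, 2 rose in Tu-Gr1+CD11b+–primed against parental cells and 1 rose in Spl-Gr1+CD11b+–primed against parental cells. Of 12 mammary epithelial markers, 11 were tested, of which 1 rose between the primed groups, 2 rose and 5 fell in Tu-Gr1+CD11b+–primed against parental cells, and 2 rose and 4 fell in Spl-Gr1+CD11b+–primed against parental cells. Their sum was 1748 to 2097 CPM, 2116 to 2264 CPM and 2378 to 3536 CPM, again in that order.

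*Cebpa*, *Cebpb*, *Cebpd* and *Cebpg* are paralogs, so it matters whether their reads can be told apart. The longest run of identical coding bases was 29 in any pair of members, found between *Cebpa* and *Cebpb*. Of the windows of 31 bases in the 5 genes' transcripts, 0 were shared between members. Some windows were shared with genes outside the members. On the same strand, *Cebpz* shared 128 of 4678, all with AC118632.1, which had 0 counts in every library. *Cebpg* shared 73 of 5611, of which 43 were with *Gm44836*, a gene with no listed transcripts. For *Cebpb* and *Cebpd*, overlap with genes on the opposite strand was larger. *Tmem189* shared 283 such windows with *Cebpb*, which has 1474, and *Spidr* shared 533 with *Cebpd*, which has 3741. The libraries were made with a stranded kit, but the strand setting of the quantification is not given in the sources used here, so reads of these pairs may be split by strand or not.

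Levels are compared between genes on the length-scaled TPM scale. In TPM, *Cebpz* was the highest in every group, with 53.1 ± 1.29 (SD, n = 4) in Tu-Gr1+CD11b+–primed, 51.9 ± 2.33 in Spl-Gr1+CD11b+–primed and 50.1 ± 3.65 in parental cells. *Cebpb* and *Cebpg* followed. In parental cells *Cebpb* (11.2 to 14.7 TPM) lay above *Cebpg* (7.15 to 10.6 TPM) with no overlap between libraries. Their ranges of 15.2 to 16.3 and 13.2 to 16.3 TPM in Tu-Gr1+CD11b+–primed cells overlapped, as did the ranges of 11.6 to 13.85 and 11.96 to 16.0 TPM in Spl-Gr1+CD11b+–primed cells. On coding transcripts alone, *Cebpg* (11.9 to 14.4 TPM) lay below *Cebpb* in Tu-Gr1+CD11b+–primed cells with no overlap, and still overlapped it in Spl-Gr1+CD11b+–primed cells (11.96 to 15.5 TPM). The order in Tu-Gr1+CD11b+–primed cells thus depended on the transcripts counted. The transcripts not annotated as coding held few *Cebpg* reads there, 1.85% on average. *Cebpd* came next with means of 1.78, 0.476 and 0.380 TPM in Tu-Gr1+CD11b+–primed, Spl-Gr1+CD11b+–primed and parental cells, and *Cebpa* was last, at no more than 0.118 TPM in any library. The ratio of *Cebpb* to *Cebpd* TPM, which needs no scaling between libraries, was 6.76 to 11.3 in the 4 Tu-Gr1+CD11b+–primed libraries, 21.3 to 32.8 in the Spl-Gr1+CD11b+–primed libraries and 31.8 to 41.4 in the parental libraries, and the last 2 groups overlapped. Both inflammatory members were thus closest in level in Tu-Gr1+CD11b+–primed cells, although *Cebpb* stayed the higher in all 12 libraries.

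**Figure D1:**
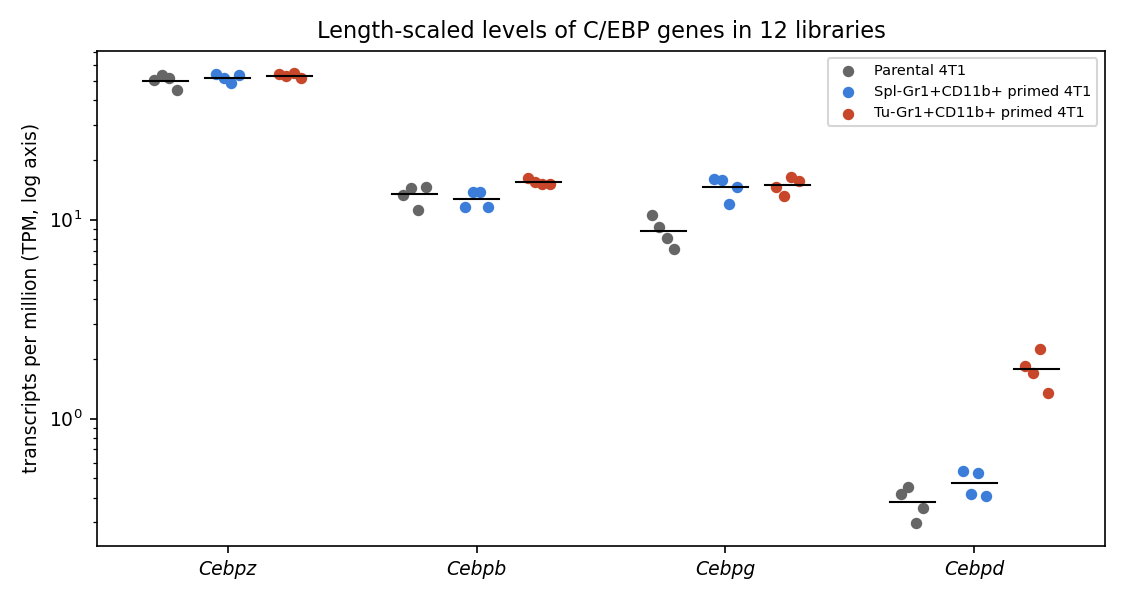
Length-scaled level (TPM, log axis) of the 4 C/EBP genes that passed the expression filter. Each point is a library and each bar the mean of 4 libraries. *Cebpz* sits near 50 TPM in all groups, and the Tu-Gr1+CD11b+–primed libraries of *Cebpd* (1.34 to 2.24 TPM) lie above all others of that gene.

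Of the 5 members, 4 passed the expression filter, and *Cebpa* did not. In the comparison of the primed groups, 1 member was called changed (*Cebpd*), where 7.63% of all genes tested were called. Against parental cells, 3 were called in Tu-Gr1+CD11b+–primed cells (*Cebpd*, *Cebpg* and *Cebpz*), where 59.2% of all genes were called, and 3 in Spl-Gr1+CD11b+–primed cells (*Cebpb*, *Cebpg* and *Cebpz*), where 48.2% were. The comparisons with parental cells share the same 4 parental libraries. Members whose groups did not overlap numbered 2 between the primed groups, 3 in Tu-Gr1+CD11b+–primed against parental cells and 3 in Spl-Gr1+CD11b+–primed against parental cells, beside 17.0%, 55.5% and 39.6% of all genes. With backgrounds this high against parental cells, 3 of 4 members called there is no result about the members, which are described below by the size of each change.

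*Cebpd* (ENSMUSG00000071637) lies on chromosome 16 of GRCm38 from 15887286 to 15891031 on the plus strand and encodes C/EBPδ. It rose in Tu-Gr1+CD11b+–primed cells against both other groups. Its counts were 134, 114, 159 and 78 in the 4 Tu-Gr1+CD11b+–primed libraries, 47, 30, 41 and 30 in the Spl-Gr1+CD11b+–primed libraries and 40, 35, 26 and 36 in the parental libraries. Scaled, these were 4.755, 4.43, 5.56 and 2.71 CPM in Tu-Gr1+CD11b+–primed cells, 1.475, 1.09, 1.49 and 1.04 CPM in Spl-Gr1+CD11b+–primed cells and 1.35, 1.44, 1.09 and 1.44 CPM in parental cells. All 4 Tu-Gr1+CD11b+–primed libraries lay above all 8 others, and replicate 4 was the lowest of them. *Cebpd* was 3.41-fold higher in Tu-Gr1+CD11b+–primed than in Spl-Gr1+CD11b+–primed cells (log2 fold change 1.77, standard error 0.22, adjusted p = 0.000173), and 3.27-fold higher than in parental cells (log2 fold change 1.71, standard error 0.22, adjusted p = 2.15e-05). The log2 fold change of Spl-Gr1+CD11b+–primed against parental cells was -0.06, with a 95% confidence interval from -0.57 to 0.45 (adjusted p = 0.853), and the libraries overlapped. The difference between the primed groups stayed between 1.63 and 1.94 when any 1 of the 12 libraries was left out, with adjusted p between 9.14e-06 and 0.00129. *Spidr*, on the opposite strand, was also higher in Tu-Gr1+CD11b+–primed cells, by 0.20 on the log2 scale against Spl-Gr1+CD11b+–primed cells (adjusted p = 0.0475) and by 0.42 against parental cells (adjusted p = 3.79e-05). Unlike *Cebpd*, it was also called higher in Spl-Gr1+CD11b+–primed than in parental cells, by 0.22 (adjusted p = 0.00717). The part of *Spidr* in the *Cebpd* counts was not tested. Of the granulocyte markers, 2 moved the same way: *Ltf*, which encodes lactoferrin, was higher in Tu-Gr1+CD11b+–primed than in Spl-Gr1+CD11b+–primed cells by 1.16 on the log2 scale (adjusted p = 0.000820) and *S100a8* by 0.93 (adjusted p = 0.0270). In parental cells, *Ltf* and *S100a8* were at 1.785 and 1.835 CPM. The other tested marker, *Cxcr2*, was at 0.15 between the primed groups (adjusted p = 0.792). Below the filter, the means of *Itgam*, *Ptprc* and *Csf3r* were lower in Tu-Gr1+CD11b+–primed than in Spl-Gr1+CD11b+–primed cells. Those of *Ly6g* and *Prtn3* were higher, and none of these 5 exceeded 7 counts in a primed library. *Ngp* and *Retnlg* had no count in any library, and the part of other cells in the *Cebpd* values was not tested. In bulk RNA, more cells that express a gene and more RNA per cell cannot be told apart.

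**Figure D2:**
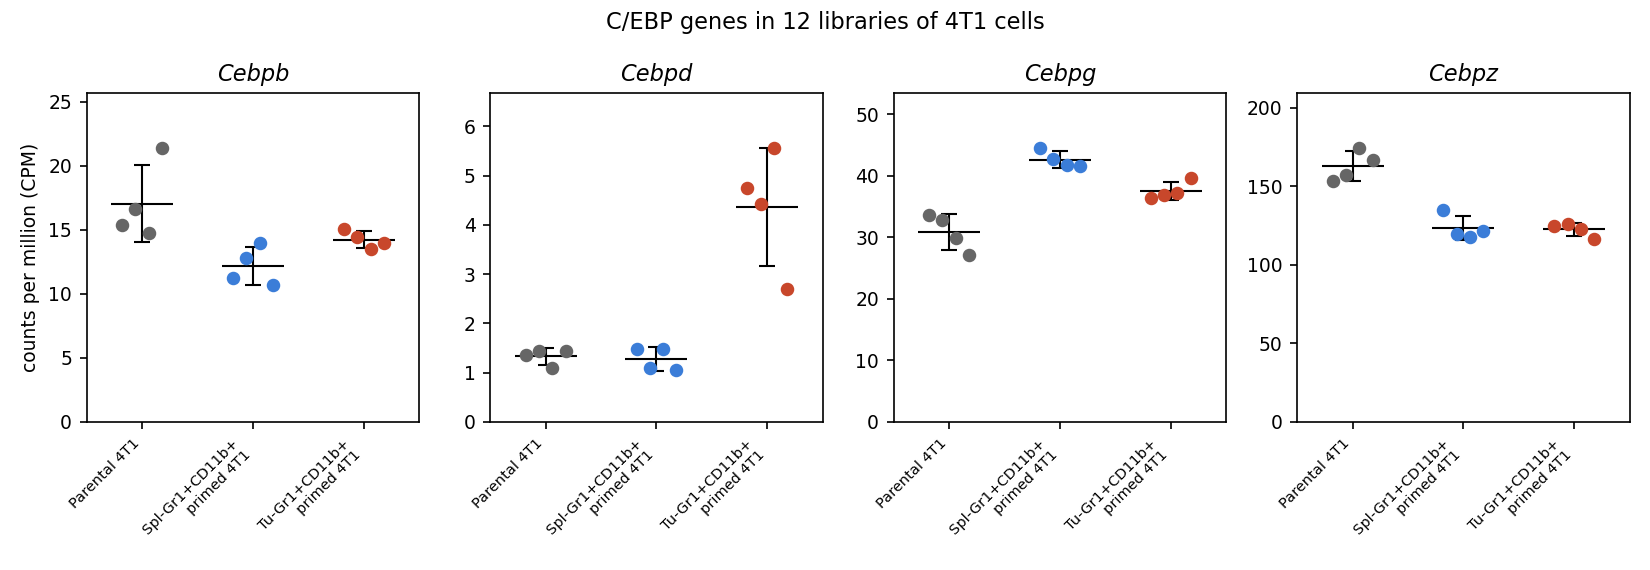
CPM of *Cebpb*, *Cebpd*, *Cebpg* and *Cebpz* in the 12 libraries, each panel with its own axis from 0. Points are libraries in order of replicate number, and bars show the mean and SD of 4 libraries. The Tu-Gr1+CD11b+–primed points of *Cebpd* stand clear of the rest, and the parental points of *Cebpz* lie above both primed groups.

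*Cebpb* (ENSMUSG00000056501, chromosome 2 from 167688915 to 167690418, plus strand) encodes C/EBPβ and has a single annotated transcript. It was measured at 15.05, 14.45, 13.5 and 14.0 CPM in Tu-Gr1+CD11b+–primed cells, 11.3, 12.8, 13.9 and 10.7 CPM in Spl-Gr1+CD11b+–primed cells and 15.4, 16.6, 14.8 and 21.4 CPM in parental cells. Parental replicate 4 was the highest library, and the Spl-Gr1+CD11b+–primed libraries all lay below the parental ones. *Cebpb* fell in Spl-Gr1+CD11b+–primed against parental cells, by 0.48 on the log2 scale with a standard error of 0.11 (adjusted p = 0.00311). Without parental replicate 4 or any other single library, this value ranged from -0.57 to -0.36 and passed the test each time. In Tu-Gr1+CD11b+–primed against parental cells the log2 fold change was -0.26, with an interval from -0.50 to -0.02 (adjusted p = 0.0617), which moved to -0.13 without parental replicate 4 (adjusted p = 0.236) and passed without parental replicate 1 (adjusted p = 0.0464), parental replicate 3 (adjusted p = 0.0327) or Spl-Gr1+CD11b+–primed replicate 3 (adjusted p = 0.0491). With all libraries, DESeq2 called it lower (-0.27, adjusted p = 0.0431). Between the primed groups the log2 fold change was 0.23, from -0.02 to 0.47 (adjusted p = 0.256). The fall was -0.31 without TMM factors (adjusted p = 0.0274). On unscaled TPM the value for Spl-Gr1+CD11b+–primed against parental cells was -0.07 (limma, adjusted p = 0.559) and that for Tu-Gr1+CD11b+–primed cells turned to 0.22, which relative to the median gene were -0.48 and -0.27. *Tmem189*, on the opposite strand, had a log2 fold change of 0.14 in Spl-Gr1+CD11b+–primed (adjusted p = 0.0648) and of 0.15 in Tu-Gr1+CD11b+–primed against parental cells (adjusted p = 0.0384), and its part in the *Cebpb* counts was not tested.

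*Cebpg* (ENSMUSG00000056216, chromosome 7 from 35046422 to 35056573, minus strand) encodes C/EBPγ and was higher in both primed groups than in parental cells. Its level was 36.4, 36.9, 37.15 and 39.6 CPM in Tu-Gr1+CD11b+–primed cells, 44.5, 42.8, 41.8 and 41.5 CPM in Spl-Gr1+CD11b+–primed cells and 33.6, 32.8, 29.9 and 27.1 CPM in parental cells. None of the 3 groups overlapped another on this scale, with the Spl-Gr1+CD11b+–primed libraries the highest. Relative to parental cells, *Cebpg* rose by 0.47 ± 0.06 (log2, ± standard error) in Spl-Gr1+CD11b+–primed cells, with an adjusted p of 8.00e-05. The rise in Tu-Gr1+CD11b+–primed cells was 0.28 ± 0.07, with an adjusted p of 0.00208. The values were 0.63 and 0.47 without TMM factors and 0.74 and 0.77 on unscaled TPM, which relative to the median gene were 0.33 and 0.29. The first was 0.31 on the authors' normalized signal (limma, adjusted p = 0.0163). Between the primed groups the log2 fold change was -0.19, with an interval from -0.32 to -0.05, which did not pass the threshold after adjustment (adjusted p = 0.0982). It passed without parental replicate 4 (adjusted p = 0.0391), and with offsets for effective transcript length it was -0.03 (adjusted p = 0.888). Nearly all *Cebpg* reads, 93.2% to 99.6% per library, were assigned to the coding transcript Cebpg-202.

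Upstream sequence was at hand for *Cebpb* and *Cebpg* and is shown for comparison. On the TMM scale, both were called in Spl-Gr1+CD11b+–primed against parental cells, in opposite directions. In Tu-Gr1+CD11b+–primed against parental cells only *Cebpg* was called. The 250 bases before each annotated start are from RefSeq on GRCm38.p6, read 5′ to 3′ along the gene, at chr2:167688665-167688914 (plus strand) and chr7:35056567-35056816 (minus strand). *Cebpd* and *Cebpz* had no entry in the promoter table. Motifs, 6 in all, were searched for on both strands: CCAAT as bound by NF-Y, the TATA box TATAA, the core TGACG of CREB and ATF sites, the GC box GGGCGG, the STAT site TTCNNNGAA and the C/EBP site TTGCNNAA. Capitals mark matches other than GGGCGG, on either strand.
Cebpb promoter: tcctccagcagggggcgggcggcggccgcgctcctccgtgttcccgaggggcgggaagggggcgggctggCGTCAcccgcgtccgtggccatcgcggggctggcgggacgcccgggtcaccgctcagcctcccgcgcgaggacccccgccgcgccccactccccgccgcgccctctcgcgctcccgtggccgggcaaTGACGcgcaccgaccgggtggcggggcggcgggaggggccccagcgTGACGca
Cebpg promoter: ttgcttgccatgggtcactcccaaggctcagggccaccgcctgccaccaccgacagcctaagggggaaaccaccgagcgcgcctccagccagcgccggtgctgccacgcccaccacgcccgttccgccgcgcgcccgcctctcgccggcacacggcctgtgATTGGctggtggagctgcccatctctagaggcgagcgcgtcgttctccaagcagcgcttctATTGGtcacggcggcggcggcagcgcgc
The *Cebpb* sequence had 81.6% G and C and held TGACG 3 times, at 7 to 3 and 53 to 49 bases before the start and, on the other strand, at 180 to 176. TGACG was present in 17.8% of 32851 promoters of this length. GGGCGG matched 5 times, with 1 overlapping pair, and was present in 32.7% of promoters. The *Cebpg* sequence had 70.8% G and C and held CCAAT, read as ATTGG on the shown strand, at 89 to 85 and 28 to 24 bases before the start, which was present in 33.8% of promoters. TTCNNNGAA (7.02% of promoters) and TTGCNNAA (9.56%) matched neither window. TATAA, present in 22.8% of promoters, was found only in the window of *Cebpa* among the 3 members with an entry, at 30 to 26 bases before its start.

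*Cebpz* (ENSMUSG00000024081, chromosome 17 from 78919006 to 78937066, minus strand) was lower relative to the bulk of genes in both primed groups than in parental cells. It was measured at 124, 126, 123 and 117 CPM in Tu-Gr1+CD11b+–primed cells, 135, 120, 118 and 122 CPM in Spl-Gr1+CD11b+–primed cells and 153, 157, 174 and 167 CPM in parental cells. Every parental library lay above every primed library, and the primed groups overlapped. It fell by 0.41 ± 0.06 (log2, ± standard error) from the parental level in Tu-Gr1+CD11b+–primed cells, with an adjusted p of 4.76e-05. The fall in Spl-Gr1+CD11b+–primed cells was -0.40 ± 0.06, with an adjusted p of 0.000123. On library totals without TMM factors the values were -0.22 and -0.23, and both passed the test. On unscaled TPM they turned to 0.09 and 0.05 and did not pass (limma, adjusted p = 0.2695 and 0.515), although *Cebpz* differed from the median gene on that scale by -0.40 and -0.35. Between the primed groups the log2 fold change was -0.01, with an interval from -0.14 to 0.11 (adjusted p = 0.926). *Cebpzos*, a small gene that overlaps the 3′ end of *Cebpz* on the opposite strand, had log2 fold changes of -0.07, -0.02 and 0.05 in Tu-Gr1+CD11b+–primed against Spl-Gr1+CD11b+–primed, Tu-Gr1+CD11b+–primed against parental and Spl-Gr1+CD11b+–primed against parental cells, and was called in none of them (edgeR adjusted p between 0.661 and 0.833).

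**Figure D3:**
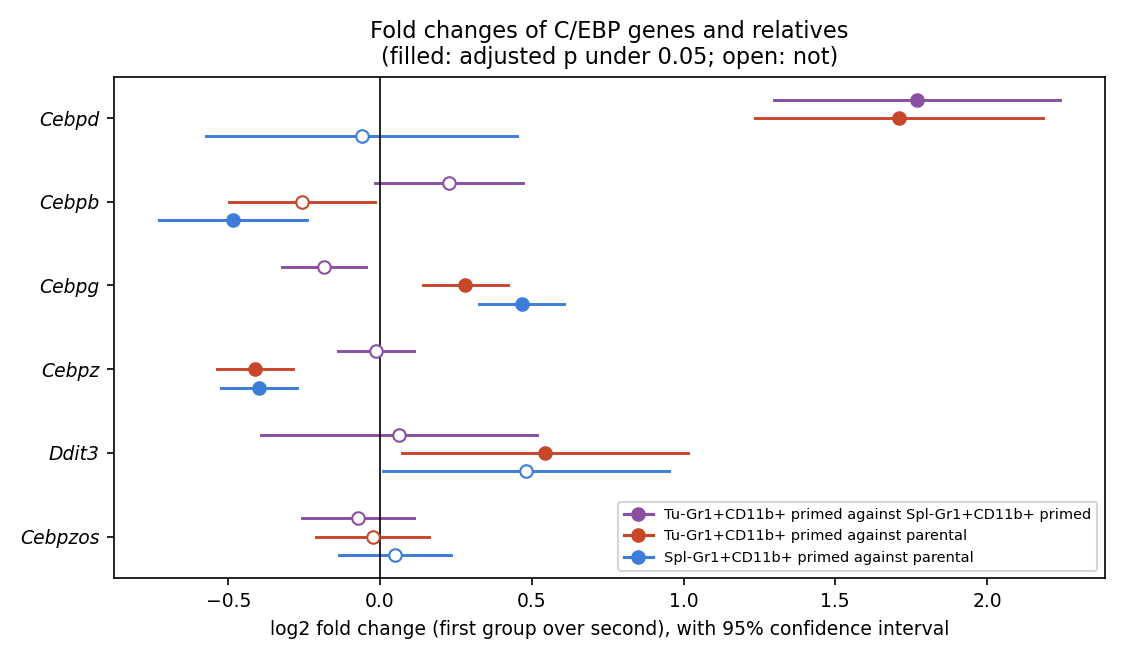
Log2 fold changes (horizontal axis) of the 4 tested C/EBP genes, of *Ddit3* and of *Cebpzos* in the 3 comparisons, with 95% confidence intervals as lines. Filled points passed an adjusted p of 0.05. *Cebpd* lies at 1.77 and 1.71 in the comparisons that include Tu-Gr1+CD11b+–primed cells and at -0.06 in the other, whereas the other members stay within 0.5 of zero.

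*Cebpz* reads fell almost entirely on 2 of its 5 listed transcripts. The coding Cebpz-201 took 60.3% ± 2.75 (SD, n = 4) in Tu-Gr1+CD11b+–primed, 59.4% ± 4.00 in Spl-Gr1+CD11b+–primed and 59.9% ± 2.95 in parental cells. Cebpz-204, which is annotated as a target of nonsense-mediated decay, the pathway that removes RNA with an early stop codon, took 39.4% ± 2.76, 40.35% ± 3.91 and 40.1% ± 3.00. The annotation gives both 16 exons and has them differ in 3, by 25 bases at the start of exon 1, by 286 bases at the inner end of exon 2 and by 839 bases at the end of exon 16. Cebpz-204 leaves exon 2 early and skips 286 bases that Cebpz-201 keeps (chr17:78934575-78934860). The junction is printed because it sets the transcripts apart, with the first bases that Cebpz-204 leaves out in capitals, at chr17:78934846-78934875 on the minus strand of GRCm38.
Cebpz exon 2 inner end: tctcccatgaagaaaGTgagttggctaaca
The skipped part begins with GT, the usual start of an intron. The share of *Cebpz* reads on transcripts that are not annotated as coding differed by -0.97 percentage points between Tu-Gr1+CD11b+–primed and Spl-Gr1+CD11b+–primed cells, by -0.46 between Tu-Gr1+CD11b+–primed and parental cells, and by 0.52 between Spl-Gr1+CD11b+–primed and parental cells. None of these passed an exact two-sided permutation test (adjusted p = 0.857 in each), in which 4 against 4 libraries allow a p no smaller than 0.0286 before adjustment. For *Cebpg*, the share on such transcripts was 1.85% ± 0.59, 1.59% ± 1.41 and 0.807% ± 1.13 in Tu-Gr1+CD11b+–primed, Spl-Gr1+CD11b+–primed and parental cells (exact permutation, adjusted p = 0.857 in each of the 3 comparisons). As a share of TPM it was larger, at 7.78% to 18.7% in Tu-Gr1+CD11b+–primed, 0% to 16.5% in Spl-Gr1+CD11b+–primed and 0% to 6.16% in parental libraries. The Tu-Gr1+CD11b+–primed and parental libraries did not overlap on that scale, with a difference of 8.82 percentage points (exact permutation, adjusted p = 0.171). That is the smallest adjusted p open to 1 separated comparison, so the test could not decide this difference. The other differences were 4.70 points between the primed groups and 4.13 between Spl-Gr1+CD11b+–primed and parental cells (exact permutation, adjusted p = 0.629 in each). These TPM shares of *Cebpg* rest on few reads. In Tu-Gr1+CD11b+–primed libraries, the processed transcript Cebpg-204 had 1.19 to 6.55 estimated reads and 0.413 to 2.10 TPM. Cebpg-203, which retains an intron, had 8.87 to 18.4 reads and 0.309 to 0.668 TPM there. In parental libraries Cebpg-204 had at most 1 read and Cebpg-203 at most 24.5. The *Cebpz* difference of -0.97 turned to 0.10 without Tu-Gr1+CD11b+–primed replicate 1 and to 0.39 without Spl-Gr1+CD11b+–primed replicate 3. These shares are estimates of the quantification, which divides reads that fit several transcripts.

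**Figure D4:**
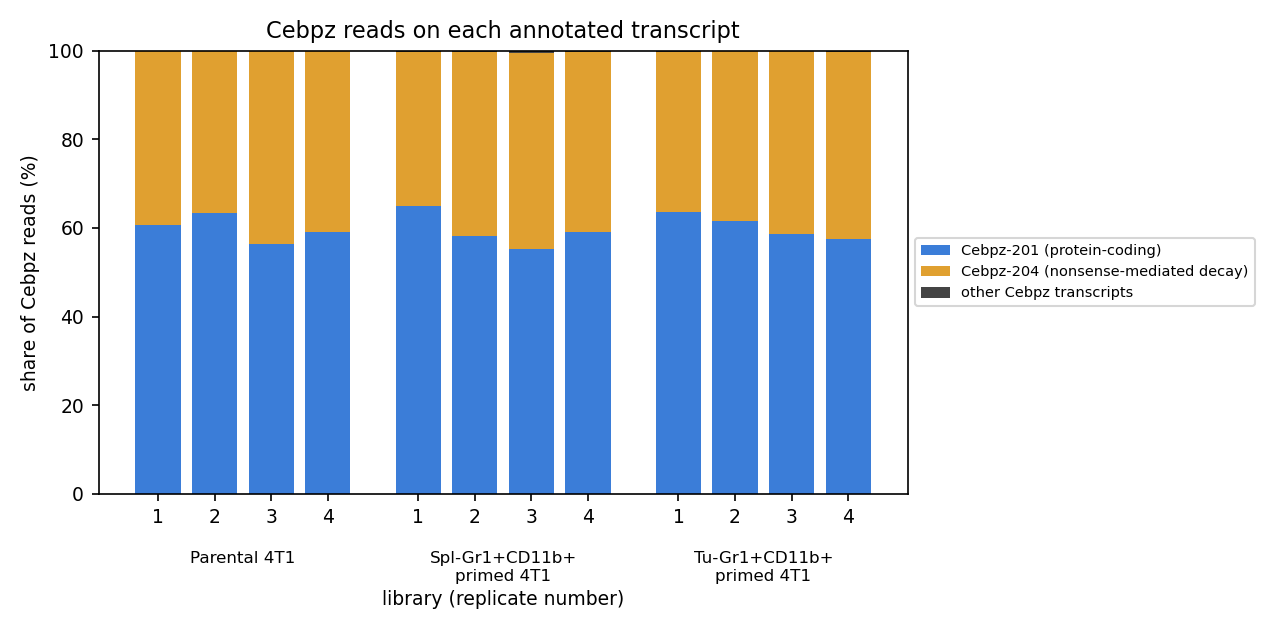
Share of *Cebpz* reads (percent, vertical axis) assigned to the coding transcript Cebpz-201, to Cebpz-204 and to the other annotated transcripts in each library. The share of Cebpz-204 lies between 34.95% and 44.2% in all 12 libraries, and the groups overlap.

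*Cebpa* (ENSMUSG00000034957, chromosome 7 from 35119293 to 35121928, plus strand), which encodes C/EBPα, was close to undetected. Its counts were 2, 2, 1 and 0 in Tu-Gr1+CD11b+–primed, 2, 2, 5 and 4 in Spl-Gr1+CD11b+–primed and 1, 2, 2 and 0 in parental libraries. A count of 0 allows up to 3 counts, or 0.105 and 0.109 CPM before TMM scaling in the libraries at 0 (parental replicate 4 and Tu-Gr1+CD11b+–primed replicate 4), for counting error only. *Cebpa* did not pass the expression filter and was not tested, so whether the groups differ is not decided at this depth. *Cebpe*, the granulocyte member, had 0 counts in all 12 libraries. *Ddit3*, which encodes CHOP, a C/EBP relative that blocks DNA binding of its partners, was measured at 4.505 CPM ± 1.22 (SD, 4 libraries) in Tu-Gr1+CD11b+–primed, 4.325 ± 0.83 CPM in Spl-Gr1+CD11b+–primed and 3.08 ± 0.79 CPM in parental cells. It was called higher in Tu-Gr1+CD11b+–primed than in parental cells (log2 fold change 0.54, adjusted p = 0.0458), with overlapping libraries, and not in Spl-Gr1+CD11b+–primed cells (0.48, adjusted p = 0.0841).

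Genes of the C/EBP pathway were counted in 5 lists, as a description beside all genes tested. Genes called higher made up 4.66% of those tested and genes called lower 2.97% between the primed groups, 31.2% and 28.0% in Tu-Gr1+CD11b+–primed against parental cells, and 25.7% and 22.5% in Spl-Gr1+CD11b+–primed against parental cells. No set test was run. Without TMM factors or on unscaled TPM, the lists' medians moved with the median of all genes, and directions against parental cells are given relative to it.

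A list of 18 genes held receptors, signal carriers and feedback regulators of the IL-6 family and related inflammatory inputs. Most of them act upstream of *Cebpb* and *Cebpd*. Of the 18, 6 rose in Tu-Gr1+CD11b+–primed against Spl-Gr1+CD11b+–primed cells and 12 did not pass (median log2 fold change 0.24). *Osmr*, the oncostatin M receptor, was measured at 69.7 CPM ± 13.9 (SD, 4 libraries) in Tu-Gr1+CD11b+–primed, 16.9 ± 2.34 CPM in Spl-Gr1+CD11b+–primed and 12.25 ± 0.42 CPM in parental cells. The primed groups differed by 2.04 on the log2 scale (adjusted p = 2.27e-06). The signal transducer *Stat3* rose (1.12, adjusted p = 9.73e-06), as did *Socs3*, the feedback inhibitor of the pathway (1.15, adjusted p = 1.14e-05). These genes rose in the comparison in which *Cebpd* rose and *Cebpb* did not pass the test, and a link between them was not tested. Against parental cells, 13 of the 18 rose and 3 fell in Tu-Gr1+CD11b+–primed cells (median 0.38), among them *Osmr* (2.51) and *Stat3* (1.43). In Spl-Gr1+CD11b+–primed cells 7 rose and 4 fell (median 0.11), led by *Tyk2* (0.74, adjusted p = 6.25e-05), *Il6ra* (0.58) and *Osmr* (0.47, adjusted p = 0.0130). The genes that fell, *Il6st*, *Jak1* and *Rela* in both groups and *Tnfrsf1a* in Spl-Gr1+CD11b+–primed cells, turned to positive values on unscaled TPM, where *Tnfrsf1a* did not lie below the median gene.

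Of 22 acute-phase and inflammatory genes, many of them known C/EBP targets, 13 passed the filter. Between the primed groups 7 rose and 6 did not pass (median 0.32). *Saa3*, an acute-phase serum amyloid, was measured at 3.28 CPM ± 0.77 (SD, 4 libraries) in Tu-Gr1+CD11b+–primed, 0.653 ± 0.16 CPM in Spl-Gr1+CD11b+–primed and 0.569 ± 0.10 CPM in parental cells, a log2 fold change of 2.33 between the primed groups (adjusted p = 3.72e-05). *Nos2*, the inducible nitric oxide synthase, rose by 1.496 (adjusted p = 1.14e-05) and *Lcn2*, an iron-sequestering lipocalin, by 1.09 (adjusted p = 6.81e-05). Against parental cells 11 of the 13 rose in Tu-Gr1+CD11b+–primed cells (median 0.74), led by *Saa3* (2.53), *Nos2* (2.22) and the chemokine gene *Cxcl2* (1.13). In Spl-Gr1+CD11b+–primed cells 6 rose and 2 fell (median 0.35). *Cxcl2* (1.08), *Ccl2* (0.83) and *Nos2* (0.73) led, and *Lcn2* and *C3*, the central complement component, fell by 0.38 and 0.39, which turned to 0.04 and 0.07 on unscaled TPM and lay below the median gene there too. The other 9 genes, among them *Il6*, *Saa1*, *Saa2* and *Hp*, had at most 13 counts in any library.

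**Figure D5:**
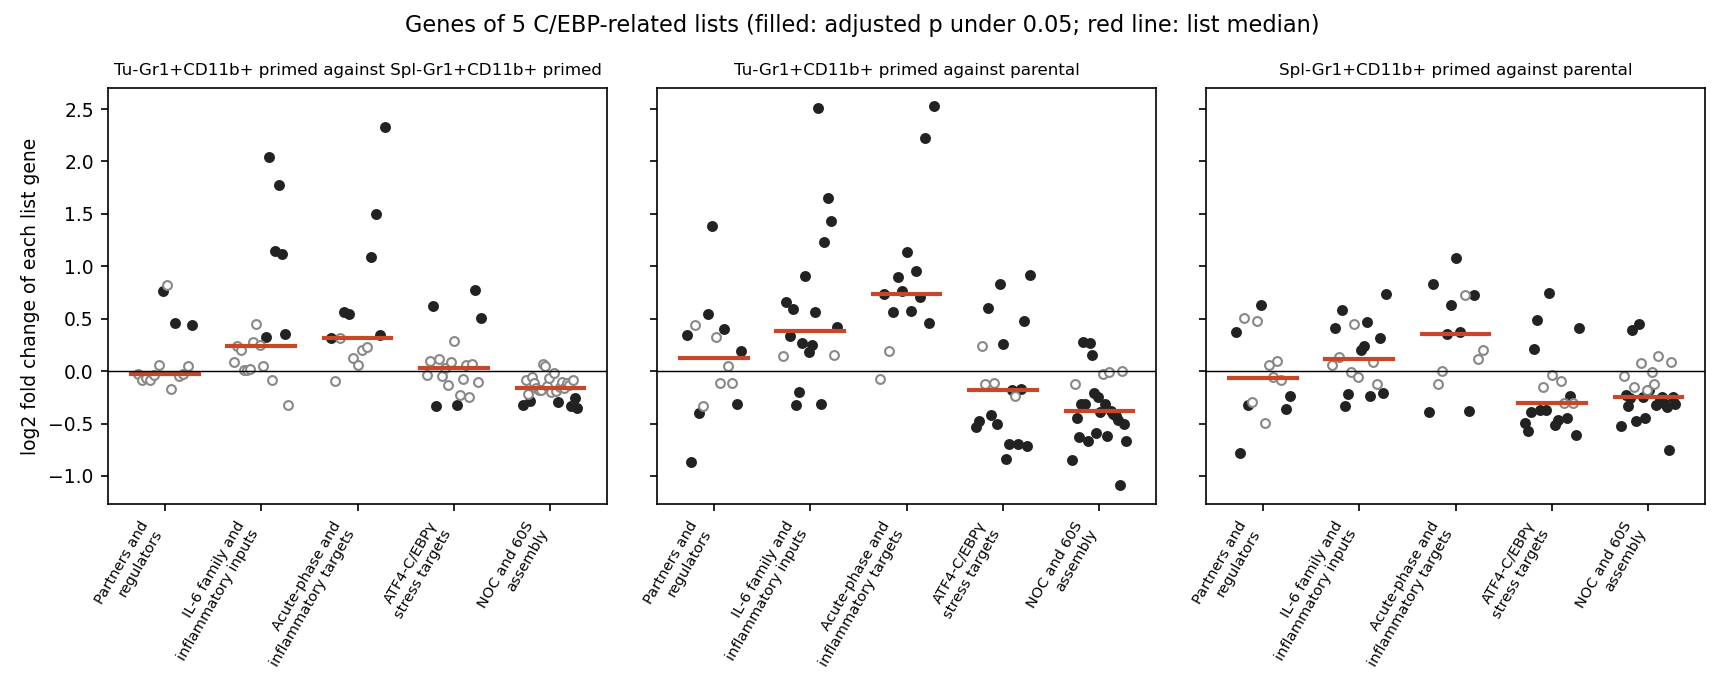
Log2 fold changes (vertical axis) of each tested gene in the 5 lists, in 3 panels for the 3 comparisons. Filled points passed an adjusted p of 0.05, open points did not, and red lines are list medians. The medians of the inflammatory inputs and targets lie above zero in every panel, at 0.24 and 0.32 in the first, and the median of the NOC and ribosome assembly list lies below zero, at -0.16 in the first panel.

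Genes listed as targets of ATF4 and C/EBPγ, many of which supply amino acids under stress, were mostly lower against parental cells. Whether C/EBPγ acts on them in these cells was not measured. Of 19 tested, 10 fell and 4 rose in Spl-Gr1+CD11b+–primed against parental cells (median -0.30), where *Cebpg* was higher by 0.47. *Nupr1*, a stress-induced chromatin protein, rose by 0.75 (adjusted p = 6.93e-05), whereas *Slc7a5*, an amino acid transporter, fell by 0.61 (adjusted p = 3.41e-06) and *Asns*, asparagine synthetase, by 0.57 (adjusted p = 1.96e-05). In Tu-Gr1+CD11b+–primed against parental cells 10 fell and 5 rose (median -0.18), with *Phgdh*, the entry enzyme of serine synthesis, at -0.84 and *Vldlr* and *Nupr1* at 0.91 and 0.83. On unscaled TPM 5 of the 14 and 3 of the 15 calls changed sign, and relative to the median gene the list medians were -0.34 and -0.27. Between the primed groups 3 rose and 2 fell, with *Slc7a11*, the cystine transporter, at 0.78 (adjusted p = 0.00437), *Chac1* at 0.62 (adjusted p = 0.00205) and *Vldlr* at 0.50 (adjusted p = 0.0379).

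The list for *Cebpz* held 26 genes of the NOC family, of the assembly of the large ribosomal subunit and of the CCAAT-binding factor NF-Y. In Tu-Gr1+CD11b+–primed against parental cells 19 fell and 3 rose (median -0.39), with *Rrp12*, a pre-ribosome export factor, at -1.09, and *Bop1* and *Wdr12*, which act together in 60S assembly, at -0.85 and -0.66. In Spl-Gr1+CD11b+–primed cells 16 fell and 2 rose (median -0.24), with *Rrp12* at -0.76, *Bop1* at -0.53 and *Ncl*, nucleolin, at -0.48. On unscaled TPM 11 of the 22 calls and 12 of the 18 calls changed sign, as did the list medians (0.11 and 0.18). Relative to the median gene on that scale, 0 of these calls changed sign and the medians were -0.37 and -0.23. In the comparison of the primed groups, where scaling shifted the median gene little, 6 fell and 20 did not pass (median -0.16), with *Wdr12* at -0.35 (adjusted p = 0.00411), *Rrp12* at -0.33 (adjusted p = 0.0270) and *Bop1* at -0.32 (adjusted p = 0.0401). On TPM none of the 6 passed the threshold. *Cebpz* itself was at -0.01 in that comparison.

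The last list held dimer partners and regulators. Of 17 genes, 14 were tested, and 3 rose between the primed groups (median -0.03). These were *Fos*, an AP-1 subunit (0.76, adjusted p = 0.0164), *Nfil3*, a related leucine zipper repressor (0.46, adjusted p = 0.00185), and *Trib3*, a stress-induced pseudokinase (0.44, adjusted p = 0.000854). In Tu-Gr1+CD11b+–primed against parental cells 5 rose and 3 fell (median 0.12), with *Fos* at 1.39, *Atf5* at -0.87 and *Ddit3* at 0.54. The count that rose was 4 with DESeq2, with limma-voom and on coding transcripts alone. In Spl-Gr1+CD11b+–primed cells 2 rose and 4 fell (median -0.07), with *Atf5* at -0.78, *Fos* at 0.63 and *Atf4*, the stress-response partner of C/EBPγ, at 0.37.

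The genes most like each member were sought over all 12 libraries by the root mean square difference in log2 CPM after centering each gene on its mean. For *Cebpd* these were *Parp9* (0.244), *Ddx58* (0.259) and *Ccdc68* (0.261). For *Cebpb* they were *Gpsm3* (0.0714), *Sys1* (0.0862) and *Mpc2* (0.111). For *Cebpg* they were *Exog* (0.0581), *Tfdp1* (0.0630) and *Ttc9c* (0.0634), and for *Cebpz* *Golt1b* (0.0401), *Ube2j1* (0.0404) and *Srp72* (0.0407). *Parp9* and *Ddx58* are genes known to be induced by interferon. The distances of *Cebpd* are the largest of the 4 members, and its counts are the fewest. Its own spread was also the largest. The SD of log2 CPM over the 12 libraries was 0.864 for *Cebpd*, 0.257 for *Cebpb*, 0.218 for *Cebpg* and 0.210 for *Cebpz*. The distances were not divided by this spread and do not rank how well the members are matched.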

How the data were processed

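RNA-Seq of 4T1 cells gave 12 libraries, 4 in each of the 3 groups, grouped by the group named in their labels. The authors trimmed reads with Trimmomatic 0.39 and quantified them with Salmon 1.4.0 (per the labels, with GRCm38 and mm10 as builds, and FastQC for quality). The annotation release and the strand setting are not given in the sources used here. The deposited files hold Salmon's estimated counts, effective lengths and TPM, a length-scaled abundance, for 117081 transcripts. The authors also deposited a gene table of normalized signal for 17447 genes, whose scaling is not given in the sources used here. Transcripts were assigned to genes with GENCODE M21 (116021 of them matched, and 0.326% to 0.419% of reads per library did not). Estimated counts were summed per gene and rounded.

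Genes passing edgeR's filter by group were fitted in 1 quasi-likelihood model over all 12 libraries (edgeR 4.0.16, R 4.3.3) with TMM factors and Benjamini-Hochberg adjustment at a threshold of 0.05. CPM used TMM-scaled totals, and log2 CPM a prior count of 2. Transcript shares were compared with exact two-sided permutation tests (Python 3.11.15, numpy 2.4.6). Scripts were tested on simulated data.

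The text names the 5 members, *Cebpe*, *Ddit3*, *Cebpzos*, the 3 called genes of each list with the largest absolute log2 fold change per comparison, and the 3 genes nearest each member. Items withheld from the text, 1 list gene among them, are not reported here. Markers and *Spidr*, *Tmem189*, AC118632.1, *Gm44836*, *Il6st*, *Jak1*, *Rela*, *Tnfrsf1a*, *C3* and the unfiltered acute-phase genes were named after their values were seen. The members and lists (partners, inputs, targets, stress, ribosome assembly, and markers of granulocytes, monocytes and macrophages, and epithelium) were chosen with earlier results of these data known. Alternatives were DESeq2 1.42.0, limma 3.58.1 (voom, and log2 of normalized signal + 1), other factors and filters, length offsets, coding transcripts, a replicate block, and leaving out libraries. Added after seeing the data were totals without TMM factors, limma on log2(TPM + 0.1), and coding TPM of *Cebpb* and *Cebpg*.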

Additional observations from a re-analysis of the deposited data

Results flagged for a closer look

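The change of *Cebpd* from parental cells differed between the primed groups. It was 1.71 on the log2 scale in Tu-Gr1+CD11b+–primed and -0.06 in Spl-Gr1+CD11b+–primed cells, a difference of 1.77 (edgeR, adjusted p = 0.000173), higher in 4 of 4 Tu-Gr1+CD11b+–primed libraries. Because the parental libraries are common to both changes, this is the same contrast as the direct comparison of the primed groups.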

How the results depend on the processing

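Of the members' log2 fold changes under the alternatives, 279 kept their direction and side of the threshold, 1 lost and 5 gained the call, and 15 reversed. *Cebpd* stayed called in Tu-Gr1+CD11b+–primed cells in both comparisons under every alternative run. The reversals were of values that had not passed the test, apart from *Cebpz* against parental cells on unscaled TPM. The *Cebpz* difference between the primed groups became 0.00381 with no filter on low counts, 0.00892 with coding transcripts only, 0.00209 with the 8 libraries compared, 0.00401 without TMM factors and 0.0339 on TPM, and ranged from -0.03 to 0.03 (-0.0276 to 0.0315) when single libraries were left out. On TPM, *Cebpg* between the primed groups was 0.0358, *Cebpb* and *Cebpz* in Tu-Gr1+CD11b+–primed against parental cells were 0.217 and 0.0868, and *Cebpd* and *Cebpz* in Spl-Gr1+CD11b+–primed against parental cells were 0.266 and 0.0528. *Cebpd* in Spl-Gr1+CD11b+–primed against parental cells was 0.109 without TMM factors and -0.157 to 0.0240 without single libraries. On TPM 1 member was called in that comparison in place of 3. With single libraries left out, 1 to 2 members were called between the primed groups, 3 to 4 in Tu-Gr1+CD11b+–primed and 3 to 3 in Spl-Gr1+CD11b+–primed against parental cells. The share of *Cebpz* reads on transcripts not annotated as coding, in Tu-Gr1+CD11b+–primed against parental cells, turned from -0.457 to 0.799 percentage points by TPM. Without single libraries its differences ranged from -2.80 to 0.387, -1.64 to 0.713 and -0.843 to 2.35 points in the 3 comparisons (Tu against Spl, Tu against parental, Spl against parental), and that of *Cebpg* between the primed groups from -0.275 to 0.755. Of the list counts, 141 stayed within 1.5 times under DESeq2, limma-voom and coding transcripts. Genes that rose went from 2 to 1 for granulocyte markers in Tu-Gr1+CD11b+–primed against parental cells (limma-voom) and for ribosome assembly in Spl-Gr1+CD11b+–primed against parental cells (coding transcripts), and 1 inflammatory input fell between the primed groups with DESeq2. The causes were not tested. Genes called between the primed groups numbered 958, but 497 with length offsets, 464 on normalized signal and 322 on TPM.

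With the replicate number as a block, *Cebpd* differed by 1.75 between the primed groups (edgeR, adjusted p = 0.00069), and 1, 3 and 3 members were called in the 3 comparisons. Same-numbered libraries did not deviate together (correlations from -0.164 to 0.148 over 12 pairs), and 3 of 12 libraries correlated best with their own number. *Cebpd* rested on 26 to 47 reads a library outside Tu-Gr1+CD11b+–primed cells.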
